A study of Mus musculus with 12 samples.

Results

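The 43 mouse genes described here encode the surface of the WNT pathway: 19 WNT ligands, 10 Frizzled receptors, the LRP5 and LRP6 co-receptors, the ROR and RYK receptors, 4 R-spondins, LGR4, the ubiquitin ligases RNF43 and ZNRF3, and PORCN and WLS, which prepare ligands for release. They were chosen by gene symbol, and each was represented by the probe set with that single symbol and the highest mean over 12 arrays. All 43 had such a probe set, of 19938 genes on the array that did, and 39 passed a filter on dim signal that 14195 genes passed. RNA was measured on Affymetrix Mouse Gene 1.0 ST arrays, with 3 biological replicates in each of 4 genotypes. Every mouse was newborn (postnatal day 0) and untreated, and total RNA came from the forebrain. GBS mice were hGFAP-cre::Ctnnb1(ex3)Fl/+SmoM2Fl/+, and their samples are labelled as tumor. GB mice were hGFAP-cre::Ctnnb1(ex3)Fl/+ and GS mice were hGFAP-cre::SmoM2Fl/+. Control mice were Ctnnb1(ex3)Fl/+SmoM2Fl/+ without Cre, so they carried both floxed alleles unrecombined. The Cre transgene uses the promoter of human GFAP, expressed by radial glia, the progenitors of the forebrain, so cells outside that lineage kept unrecombined alleles. Recombination of Ctnnb1 removes exon 3, so that the protein is no longer marked for degradation, and recombined SmoM2 is a Smoothened that signals without ligand and switches on the hedgehog pathway. Only Control lacked Cre, so an effect of Cre itself cannot be told apart from that of an allele in any comparison with Control.

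WNT proteins are lipid-modified by Porcupine (Porcn), carried to the cell surface by Wntless (Wls), and bind a Frizzled together with LRP5 or LRP6. This stops the destruction complex from degrading beta-catenin, which then enters the nucleus and works with TCF and LEF factors. Ligands such as WNT5A signal mainly without beta-catenin, through Frizzleds and the ROR or RYK receptors, to set cell polarity and movement. RNF43 and ZNRF3 take Frizzleds off the cell surface, and R-spondins bound to LGR4 or its relatives keep these ligases away. In the developing forebrain the cortical hem, at the edge of the dorsal forebrain, is a source of WNT ligands that pattern the hippocampus.

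Before the members, the alleles and arrays were checked. Levels are given throughout as RMA values on a log2 scale, and differences as log2 differences between genotype means. Axin2, a feedback target of beta-catenin, had means of 8.85 in GBS, 7.80 in GB, 7.10 in GS and 7.07 in Control, and Ptch1, a hedgehog target, had means of 9.51 in GBS, 7.12 in GB, 8.55 in GS and 7.12 in Control. Ctnnb1 averaged 8.99 ± 0.17 in GBS, 8.03 ± 0.42 in GB, 8.68 ± 0.23 in GS and 8.08 ± 0.17 in Control (SD, n = 3 each), and Smo had means of 7.44 in GBS, 7.21 in GB, 7.18 in GS and 7.11 in Control. Whether the probes of Ctnnb1 and Smo lie in the altered parts of the alleles was not given, so these levels do not check them. The 6 dorsal forebrain markers tested summed to 43.2 to 46.8 log2 units in GBS and 46.6 to 47.7 in Control, of which Emx2 was called higher in GBS and Neurod6, Bcl11b and Tbr1 lower. GB replicate 2, GS replicate 3 and Control replicate 3 deviated from their genotype means together, with correlations across genes of 0.739 to 0.833. Calls of members that change without these 3 arrays are named beside the results. Xist, which marks female cells, was above 7 on 4 arrays, GB replicates 2 and 3 and GS replicates 2 and 3, and on no GBS or Control array.

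GBS was set against Control to see how the pathway's surface genes differ where both alleles are recombined. Of the 39 tested members, 9 rose (23.1%, where 11.0% of all genes tested rose) and 2 fell (5.13%, where 4.35% of all genes tested fell). The rises were Wnt5a, Fzd1, Fzd3, Fzd7, Lrp6, Ryk, Rspo3, Rnf43 and Znrf3, and the falls were Wnt16 and Rspo2. The median log2 difference over the 39 members was -0.15, against -0.10 over all genes tested, with 13 positive and 26 negative. The share of members that fell was near that of all genes. All GBS arrays lay above all Control arrays for 10 members (28.8% of all genes tested) and below them for 16 (35.7% of all genes tested). A call is a Benjamini-Hochberg adjusted p under 0.05, two-sided, in a limma fit to all 12 arrays, and 15 members had an unadjusted p under 0.05. In each of the 9 rises GBS replicate 2 was the highest GBS array. Over all genes tested, deviations of GBS replicates 1 and 3 from their genotype mean had a correlation of -0.059. Those of GBS replicate 2 had correlations of -0.653 with replicate 1 and -0.717 with replicate 3. For how many of all genes GBS replicate 2 was the highest GBS array was not counted. Without that array 3 members rose, where 4.45% of all genes tested rose, and without any 1 of the Control arrays 4 rose, where 4.66% to 6.41% of all genes did. Calls over all genes thus dropped in these fits too. Without the 3 arrays that deviate together 10 members rose and 7 fell, where 23.5% of all genes rose and 18.9% fell. A fit of the GBS and Control arrays alone gave 9 rises, where 24.4% of all genes rose. Leaving out GB replicate 2 gave 9, where 23% did, and weighting arrays gave 10, where 24.1% did. In these fits the share of members that rose was near that of all genes. In bulk tissue, more cells that express a gene and more RNA per cell cannot be told apart.

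**Figure D1:**
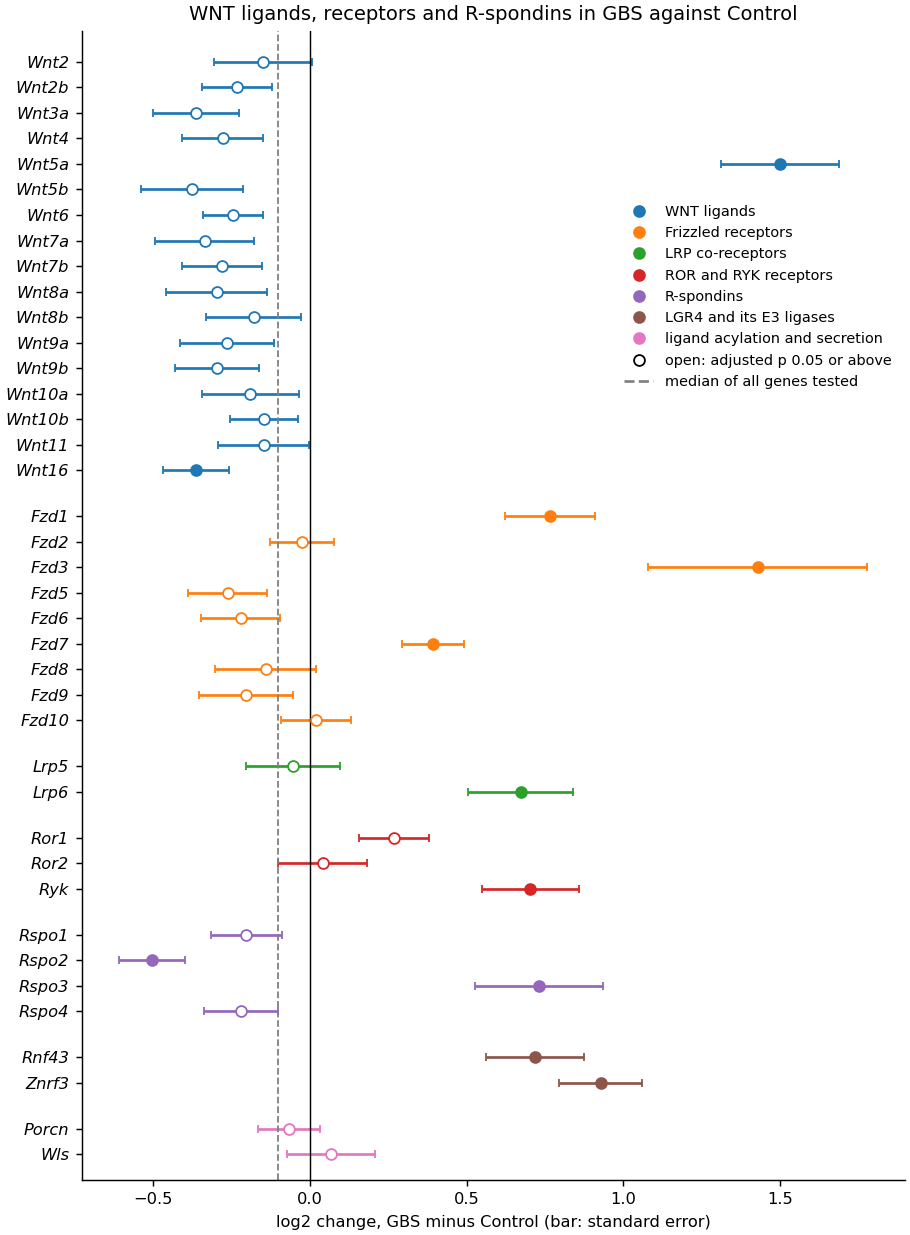
Log2 difference between GBS and Control (x axis) for the 39 tested members, grouped by role. Bars are standard errors of the fit, filled points are members called at an adjusted p under 0.05, and the dashed line is the median of all genes tested, -0.10. The 9 filled points right of 0 include 3 Frizzleds and both ubiquitin ligases, and the ligands other than Wnt5a lie left of 0.

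Among the ligands, Wnt5a was the member with the largest difference between GBS and Control, and no other ligand rose. Wnt5a, the ligand best known for signalling without beta-catenin, had log2 levels of 7.28, 8.07 and 7.29 in GBS, 6.52, 6.27 and 6.46 in GB, 6.17, 5.99 and 6.17 in GS and 6.01, 5.96 and 6.18 in Control. Every GBS array was above every other array, the GB arrays were all above the Control arrays, and the GS and Control arrays overlapped. GBS exceeded Control by 1.499 ± 0.19 (SE) on the log2 scale, a 2.83-fold difference with an adjusted p of 0.000755. GBS exceeded GB by 1.13 (adjusted p = 0.00512) and GS by 1.44 (adjusted p = 0.00161). The probe set passed the filter, whose level was 6.18 to 6.40 depending on the array, on 3 GBS and 2 GB arrays and on no GS or Control array, so it was tested only because of the arrays where it was high.

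Wnt16, a ligand studied mostly in bone, had log2 levels of 7.14, 6.86 and 6.93 in GBS, 7.22, 7.47 and 7.29 in GB, 6.96, 7.04 and 7.15 in GS and 7.29, 7.31 and 7.42 in Control. All GBS arrays and all GS arrays were below all Control arrays. The difference was -0.36 ± 0.11 (SE) in GBS against Control (adjusted p = 0.0411) and -0.29 in GS against Control, which was not called. The call in GBS was lost when any of GBS replicates 2 or 3, GS replicates 1 or 2, GB replicate 3 or a Control array was left out, with adjusted p of 0.0515 to 0.168 over those fits. Wnt6 had log2 levels of 6.96, 6.79 and 6.91 in GBS, 7.12, 7.36 and 7.16 in GB, 6.87, 6.92 and 7.004 in GS and 7.24, 7.09 and 7.06 in Control. Its GBS arrays lay below all GB and all Control arrays and overlapped the GS arrays. Wnt6 was lower in GBS than in GB by -0.33 ± 0.10 (SE, adjusted p = 0.0489) and had a difference of -0.25 from Control (adjusted p = 0.0962). The call against GB held in 6 of 24 other settings.

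The remaining ligands had small negative differences. Of the 18 ligands other than Wnt5a, 16 were tested, all 16 had negative differences in GBS against Control, and 1 was called, Wnt16. The differences ran from -0.38 for Wnt5b to -0.15 for Wnt10b and Wnt11, with a median of -0.27, against -0.10 over all genes tested. The number called moved with GB replicate 2, an array outside this comparison that enters only the shared spread. Without it Wnt2b, Wnt3a, Wnt4, Wnt5b, Wnt6, Wnt7b, Wnt9a and Wnt9b were called lower as well (adjusted p = 0.0228 to 0.0477), which made 9 ligands with Wnt16, where 20.2% of all genes tested fell. Without the 3 arrays that deviate together 6 were lower, Wnt3a, Wnt5b, Wnt6, Wnt7b, Wnt9a and Wnt16, where 18.9% of all genes fell. Wnt3a, a cortical hem ligand needed for the hippocampus, had -0.36 (adjusted p = 0.0881), and Wnt7a and Wnt7b, which the neural progenitors make and which guide the ingrowth of brain vessels, had -0.34 and -0.28. Wnt2b and Wnt8b, both made by the cortical hem, had -0.23 and -0.18. Wnt1, the ligand that patterns the midbrain, and Wnt3 were below the filter on all 12 arrays, with levels of 5.14 to 5.40 and 5.76 to 6.32. Wnt4 had a second probe set, so that the one used stood at 8.21 to 8.89 and the other at 6.40 to 6.87.

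The level of these ligands moved with a measure of dim signal. The median level of 1190 olfactory and vomeronasal receptor genes, which forebrain hardly expresses, was 4.84 to 4.92 on GBS arrays, 5.02 to 5.35 on GB arrays, 4.88 to 5.23 on GS arrays and 5.12 to 5.23 on Control arrays. The mean of the 18 ligands was 6.70 to 6.87 in GBS, 6.88 to 7.29 in GB, 6.76 to 6.99 in GS and 6.96 to 7.09 in Control. GB replicate 2 was the highest of the 3 GB arrays for all 18 of these ligands and the highest of all 12 arrays for 17. Of those receptor genes 207 passed the filter, and their median difference between GBS and Control was -0.37, with 21 called lower and 0 higher. GBS and Control arrays did not overlap in the receptor-gene level, so a fit with it as covariate can also remove genotype differences. With this level as a covariate, the median over the 16 tested ligands was 0.03, 10 of 16 were positive and 0 were called. Wnt16 then had -0.17 (adjusted p = 0.355). Over all 39 members that fit called 6 higher, among them Wnt5a at 1.39 (adjusted p = 0.00505), and 1 lower, Rspo2. Of all genes tested it called 5.56% higher and 7.37% lower. Centred on their array medians the ligands' median difference was -0.20, and after quantile normalization -0.24.

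**Figure D2:**
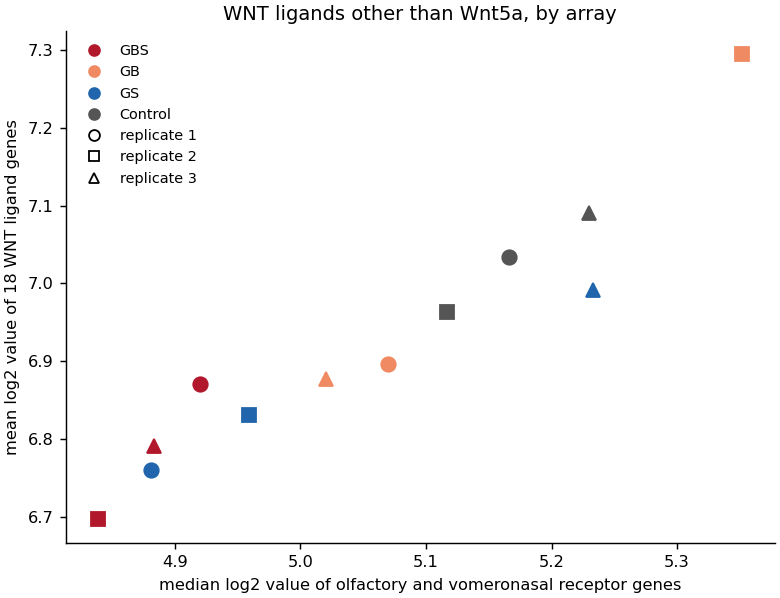
Mean log2 level of the 18 ligands other than Wnt5a (y axis) against the median log2 level of the olfactory and vomeronasal receptor genes (x axis) on the 12 arrays, with symbols for GBS, GB, GS and Control. GBS arrays lie at the lower left and GB replicate 2 at the upper right.

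The Frizzled receptors gave 3 rises among 9 tested and no fall. Promoters are printed for Fzd1 and Fzd7 here and for Ryk with that gene, as 3 of the 9 genes that rose, to show where recognition cores of TCF and LEF factors and of the hedgehog factors GLI do and do not occur. The sequences are from RefSeq, build GRCm38.p6, run 5′ to 3′ on the gene's strand from 250 bases before to 50 bases after the start, and lie at chr5:4758167-4758466 (minus strand) for Fzd1 and chr1:59481897-59482196 (plus strand) for Fzd7. Capitals mark a TCF/LEF core (CTTTGA or CTTTGT) or a GLI core (CCACCCA) on either strand.
Fzd1: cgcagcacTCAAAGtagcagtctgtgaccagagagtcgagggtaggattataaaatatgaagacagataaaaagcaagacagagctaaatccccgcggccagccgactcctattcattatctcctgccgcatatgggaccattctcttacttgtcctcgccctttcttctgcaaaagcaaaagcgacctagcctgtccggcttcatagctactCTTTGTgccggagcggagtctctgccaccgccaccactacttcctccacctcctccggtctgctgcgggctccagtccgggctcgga
Fzd7: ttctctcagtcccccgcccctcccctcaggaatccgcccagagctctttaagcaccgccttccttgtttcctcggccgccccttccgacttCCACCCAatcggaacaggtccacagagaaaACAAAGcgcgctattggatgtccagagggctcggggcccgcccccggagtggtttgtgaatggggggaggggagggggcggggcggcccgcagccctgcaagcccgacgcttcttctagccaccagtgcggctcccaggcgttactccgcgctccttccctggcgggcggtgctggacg
In Fzd1 the TCF/LEF cores begin 242 and 37 bases before the start, and in Fzd7 the TCF/LEF core begins 129 and the GLI core 159 bases before it. Windows were given for 29 of the 43 members, of which 8 held a TCF/LEF core, and 31.2% of all 32851 windows did. Of the 9 genes that rose 4 had a window, and 2 of those held the core. A GLI core was found in 2 of the 29 members, Fzd7 and Ror2, and in 9.3% of all windows. The 29 members had 33 windows and were counted by gene, so their counts and the shares of windows differ in unit.

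Fzd1, a receptor that signals through beta-catenin, had log2 levels of 8.23, 8.86 and 8.31 in GBS, 7.79, 7.84 and 7.999 in GB, 7.68, 7.68 and 7.77 in GS and 7.73, 7.65 and 7.73 in Control. Its GBS arrays were above all others, its GB arrays were above all Control arrays, and its GS arrays overlapped Control. GBS exceeded Control by 0.77 ± 0.14 (SE, 1.70-fold, adjusted p = 0.00714), and the differences were 0.17 in GB and 0.00 in GS. Fzd3, which guides axon tracts through the forebrain, had levels of 8.85, 9.27 and 8.84 in GBS, 7.85, 6.44 and 8.02 in GB, 8.49, 8.34 and 7.86 in GS and 7.72, 7.63 and 7.33 in Control. All GBS and all GS arrays were above all Control arrays, and GB replicate 2 was the lowest of the 12. The difference between GBS and Control was 1.43 ± 0.35 (SE, 2.69-fold, adjusted p = 0.0226), and that between GS and Control was 0.67 (adjusted p = 0.645). Fzd7, a receptor of stem and progenitor cells, had levels of 7.34, 7.54 and 7.27 in GBS, 6.99, 6.98 and 7.18 in GB, 7.36, 7.22 and 7.25 in GS and 7.01, 7.05 and 6.91 in Control. GBS and GS arrays again lay above Control, and the GBS and GS arrays overlapped each other. Its difference was 0.39 ± 0.10 (SE, 1.31-fold, adjusted p = 0.0248) in GBS and 0.28 in GS, which was not called.

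The call of Fzd1 held in all 24 other settings. Those of Fzd3 and Fzd7 were lost without GBS replicate 2 (adjusted p = 0.109 and 0.11) or any 1 Control array (0.0537 to 0.107), and with the receptor-gene level as a covariate, where Fzd3 had a difference of 0.48 (adjusted p = 0.211) and Fzd7 one of 0.28 (adjusted p = 0.148). Fzd3 was also not called after quantile normalization (adjusted p = 0.0504). The other tested Frizzleds ran from -0.26 for Fzd5 to 0.02 for Fzd10, with Fzd2 at -0.03 and Fzd9 at -0.20, and none was called. Fzd4, the receptor of norrin in brain vessels, passed the filter on 1 of 12 arrays and had levels of 5.82 to 6.21.

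Of the LRP co-receptors, Lrp6 rose and Lrp5 was not called. Lrp6, the co-receptor that recruits Axin to the membrane, had log2 levels of 8.36, 8.61 and 8.48 in GBS, 7.91, 7.46 and 8.01 in GB, 8.22, 8.30 and 7.81 in GS and 7.87, 7.92 and 7.66 in Control. All GBS arrays were above all arrays of the other genotypes, and GB replicate 2 was the lowest of the 12. GBS exceeded Control by 0.67 ± 0.17 (SE, 1.59-fold, adjusted p = 0.0238), whereas Lrp5 had a difference of -0.05 (adjusted p = 0.782). Whether Lrp5 and Lrp6 differed in their change was not tested. The Lrp6 call was lost without GBS replicate 2 (adjusted p = 0.11), GBS replicate 3 (0.058) or any 1 Control array (0.0501 to 0.101), and with the receptor-gene level as a covariate the difference was 0.22 (adjusted p = 0.184). In that fit Lrp5 turned positive and was called, at 0.34 (adjusted p = 0.0356).

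Of the receptors that work without beta-catenin, Ryk rose and Ror1 and Ror2 were not called. Ryk is a kinase-like receptor with no catalytic activity whose outer part binds WNT proteins. Its promoter window, at chr9:102834670-102834969 (plus strand), holds neither core.
Ryk: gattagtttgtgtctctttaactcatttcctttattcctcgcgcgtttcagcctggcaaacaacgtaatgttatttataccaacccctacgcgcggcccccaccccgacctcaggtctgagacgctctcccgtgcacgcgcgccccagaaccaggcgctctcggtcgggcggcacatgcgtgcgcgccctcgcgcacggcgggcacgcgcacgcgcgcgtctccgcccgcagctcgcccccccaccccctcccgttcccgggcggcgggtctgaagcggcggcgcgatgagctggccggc
Log2 levels of Ryk were 7.28, 7.78 and 7.44 in GBS, 6.84, 6.46 and 6.82 in GB, 7.03, 6.95 and 6.84 in GS and 6.66, 7.03 and 6.70 in Control. The lowest GBS array was above the highest array of every other genotype. Its difference between GBS and Control was 0.70 ± 0.16 (SE, 1.63-fold, adjusted p = 0.0144). Ryk was not called without GBS replicate 2 (adjusted p = 0.0655) or Control replicate 1 or 3 (0.0616 and 0.0646), nor with the receptor-gene level as a covariate, where the difference was 0.40 (adjusted p = 0.126). Ror1 had levels of 6.69, 6.76 and 6.98 in GBS, 6.66, 6.97 and 6.85 in GB, 6.43, 6.42 and 6.63 in GS and 6.50, 6.52 and 6.60 in Control. All GBS and all GB arrays of Ror1 were above all Control arrays, and the differences were 0.27 in GBS (adjusted p = 0.107) and 0.29 in GB. Ror1 was called in GBS against Control after centring (0.34, adjusted p = 0.0406), with array weights (0.31, 0.0162), without the 3 arrays that deviate together (0.30, 0.0379) and with the receptor-gene covariate (0.44, 0.0356). Ror2, a receptor for WNT5A, had a difference of 0.04 between GBS and Control (adjusted p = 0.819).

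The R-spondins moved in both directions. Rspo3 had log2 levels of 7.32, 7.92 and 7.58 in GBS, 7.33, 6.61 and 7.37 in GB, 7.23, 7.09 and 6.92 in GS and 6.83, 6.95 and 6.84 in Control. Its GBS arrays lay above all Control arrays, and GBS replicate 1 was below GB replicates 1 and 3. Rspo3 rose by 0.73 ± 0.20 (SE, 1.66-fold) in GBS against Control, with an adjusted p of 0.0358. That call was lost without GBS replicate 2 or 3, GS replicate 2 or any 1 Control array (adjusted p = 0.0541 to 0.161), after quantile normalization (0.0608), and with the receptor-gene level as a covariate, where the difference was 0.25 (adjusted p = 0.419). Rspo2 had levels of 5.98, 5.89 and 6.06 in GBS, 6.07, 6.32 and 6.26 in GB, 6.53, 6.40 and 6.27 in GS and 6.38, 6.47 and 6.59 in Control. All GBS and all GB arrays of Rspo2 were below all Control arrays, and no GBS array passed the filter for dim signal. Rspo2 fell by 0.50 ± 0.10 (SE) on the log2 scale in GBS against Control, to 0.706 of the Control level (adjusted p = 0.0111). Without GBS replicate 2 the adjusted p was 0.0544, and without Control replicate 3 it was 0.057. Rspo1 and Rspo4 had differences of -0.20 and -0.22 and were not called.

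Both ubiquitin ligases that remove Frizzleds rose. Znrf3 had log2 levels of 7.40, 8.01 and 7.53 in GBS, 6.87, 6.96 and 6.88 in GB, 6.62, 6.65 and 6.68 in GS and 6.70, 6.71 and 6.74 in Control. The 4 genotypes did not overlap at all, with GBS highest, then GB, then Control, then GS. GBS exceeded Control by 0.93 ± 0.13 (SE, 1.90-fold, adjusted p = 0.00165), while GB differed from Control by 0.19 and GS by -0.07, neither of them called. Rnf43 had levels of 7.43, 7.87 and 7.45 in GBS, 7.06, 7.35 and 6.95 in GB, 6.54, 6.83 and 6.93 in GS and 6.91, 6.72 and 6.96 in Control. Every GBS array of Rnf43 was above every other array. Its difference between GBS and Control was 0.72 ± 0.16 (SE, 1.65-fold, adjusted p = 0.0132), with an adjusted p of 0.0588 without GBS replicate 2 and 0.0533 without Control replicate 2. Lgr4, the R-spondin receptor, passed the filter only on GBS replicate 2 and was not tested. Its levels were 5.78, 6.89 and 5.95 in GBS, 5.69, 5.29 and 5.76 in GB, 5.90, 5.91 and 5.24 in GS and 5.55, 5.51 and 5.28 in Control, and a fit without the filter gave a difference of 0.76 between GBS and Control (adjusted p = 0.087). Porcn and Wls, the enzyme and the carrier of ligand secretion, had differences of -0.07 and 0.07 (adjusted p = 0.602 and 0.701).

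**Figure D3:**
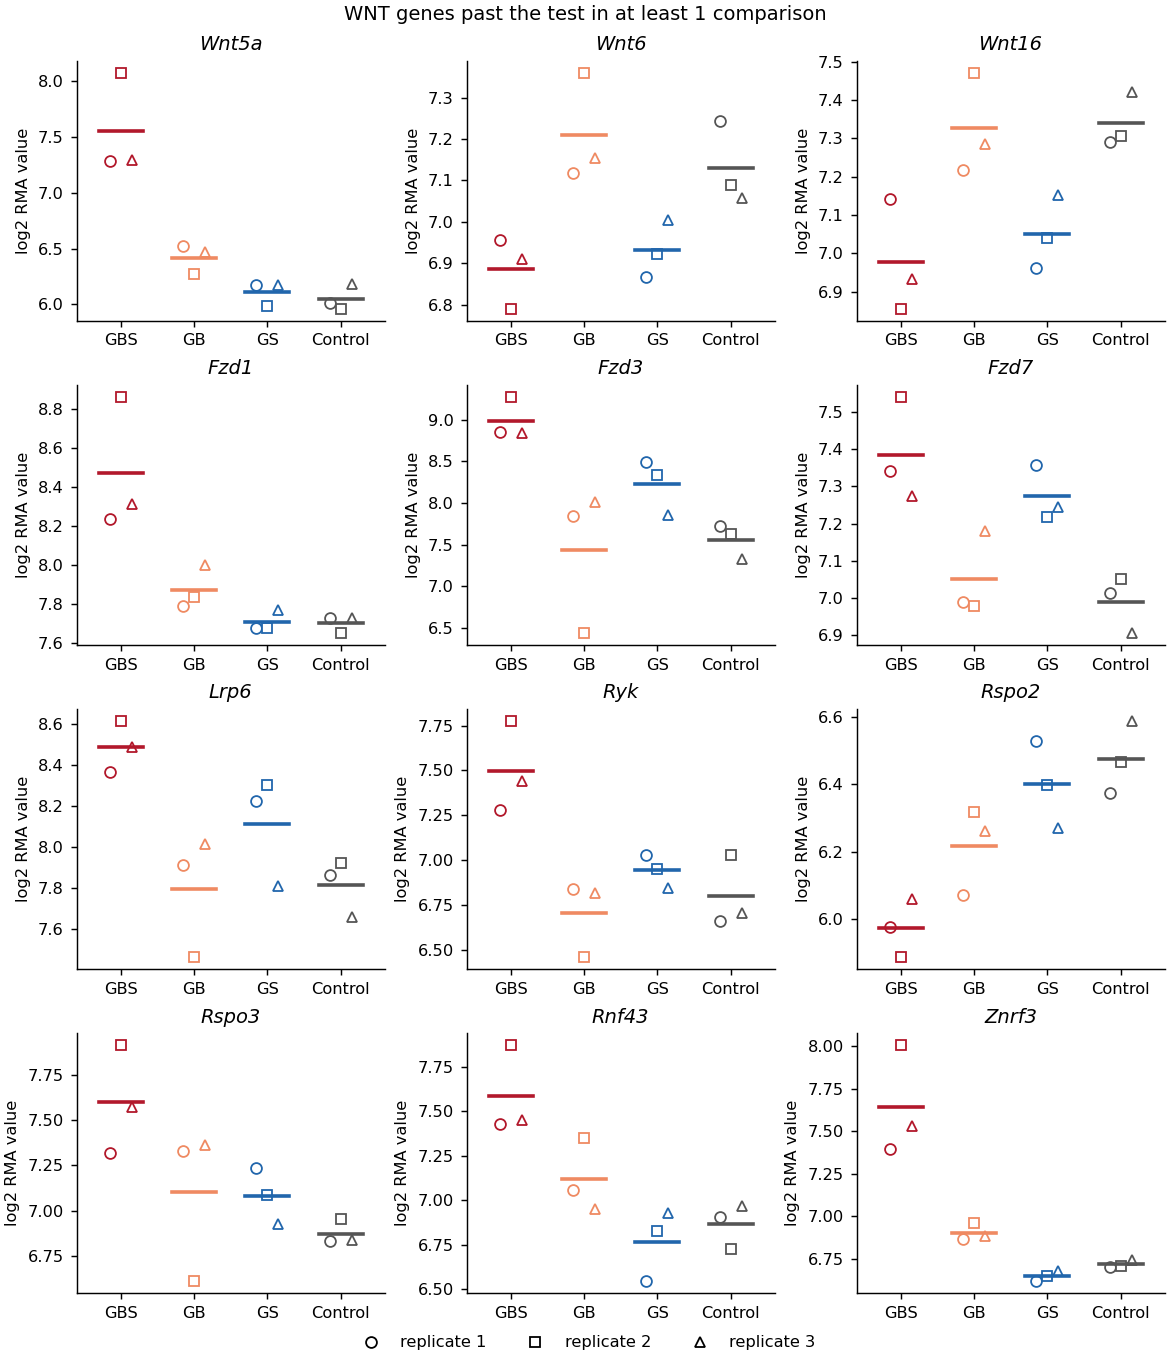
Log2 level on each array (y axis, a scale of its own per gene that does not start at 0) of the 12 members called in at least 1 comparison, with genotypes GBS, GB, GS and Control along the x axis. Points are arrays with a marker per replicate number, and horizontal bars are group means. GBS replicate 2 is the highest GBS array for the 9 genes that rose.

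Each allele alone gave no called member. In GB against Control, 0 of 39 members were called by limma in either direction (0% of all genes tested were), and 2 had an unadjusted p under 0.05, Ror1 and Rspo2. All 3 GB arrays were above all 3 Control arrays for 4 members, Wnt5a, Fzd1, Ror1 and Znrf3, which is 10.3% of members, where 3.01% of all genes tested did so. Rspo2 was the 1 member with all GB arrays below Control, where 1.09% of all genes tested were. In GS against Control, 0 of 39 were called (0.0211% of all genes tested were called higher and 0% lower), and Wnt16 and Fzd7 had an unadjusted p under 0.05. Fzd3 and Lrp6 were called higher in GS without the 3 arrays that deviate together (0.74 and 0.37, adjusted p = 0.0156 and 0.041). Of all genes tested 9.86% were higher in that fit. GS arrays lay above Control for Fzd3 and Fzd7 (8.09% of all genes tested) and below it for 8 members (9.43% of all genes tested), 6 of them ligands. The comparisons of GBS, GB and GS with Control share the Control arrays, so the values are given side by side and no overlap is counted. Wnt5a differed from Control by 1.499 in GBS, 0.37 in GB and 0.06 in GS, Rnf43 by 0.72, 0.25 and -0.10, and Rspo3 by 0.73, 0.23 and 0.21. Lrp6 differed by 0.67 in GBS, -0.02 in GB and 0.30 in GS, and Ryk by 0.70, -0.09 and 0.15.

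**Figure D4:**
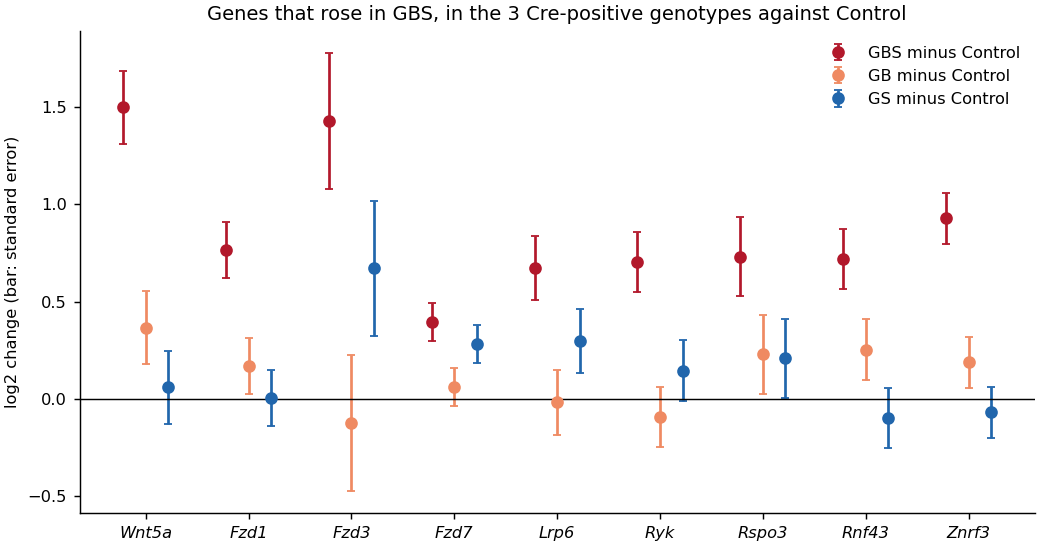
Log2 difference from Control (y axis) in GBS, GB and GS for the 9 members that rose in GBS, with standard errors of the fit. The 3 genotypes share the Control arrays. GBS values run from 0.39 for Fzd7 to 1.499 for Wnt5a, and no GB or GS value was called.

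Adding SmoM2 to stabilised beta-catenin, GBS against GB, gave 7 members higher (17.9%, where 9.60% of all genes tested were) and 1 lower (2.56%, where 3.12% were). Those higher were Wnt5a at 1.13 (adjusted p = 0.00512), Fzd3 at 1.55 (0.0204), Ryk at 0.80 (0.0116), Znrf3 at 0.74 (0.00771), Lrp6 at 0.69 (0.0265), Fzd1 at 0.59 (0.0275) and Fzd7 at 0.33 (0.0492), and the member lower was Wnt6. Rnf43 and Rspo3 had differences of 0.47 (adjusted p = 0.0655) and 0.50 (adjusted p = 0.0959). Without GBS replicate 2 only Wnt5a and Znrf3 were called higher, where 2.79% of all genes tested were. In a fit of the GBS and GB arrays alone, which leaves the differences as they are, and with the sex read from Xist as a covariate, none of the 7 passed the threshold (0.542% and 1.47% of all genes were higher). With that covariate Wnt5a had a difference of 1.05 (adjusted p = 0.0627), Znrf3 one of 0.78 (0.0568) and Fzd7 one of 0.32 (0.264). All 7 kept their direction in every alternative. Rnf43 was called without GB replicate 2 (0.58, adjusted p = 0.0411) and without the 3 arrays that deviate together (0.58, 0.0142). Without these 3 arrays Wnt8a was also called lower (-0.30, adjusted p = 0.0364), and Wnt6 and Fzd7 were not called (0.0586 and 0.0568). That fit called 7 members higher and 1 lower, where 17.1% of all genes tested were higher and 7.09% lower. The fit without GB replicate 2 called 6 higher, where 6.88% of all genes tested were. Fzd1 was also not called without GB replicate 1 (adjusted p = 0.0564), Lrp6 without GBS replicate 3 (0.0645) or GB replicate 2 (0.0507), and Fzd7 held its call in 6 of 24 other settings.

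Adding stabilised beta-catenin to SmoM2, GBS against GS, gave 4 members higher (10.3%, where 3.56% of all genes tested were) and 1 lower (2.56%, where 1.51% were), together 5 members (5.07% of all genes tested were called in either direction). Wnt5a exceeded GS by 1.44 (adjusted p = 0.00161), Znrf3 by 0.998 (0.00187), Rnf43 by 0.82 (0.013) and Fzd1 by 0.76 (0.013), and Rspo2 was lower by -0.43 (0.041). Fzd3, Lrp6 and Fzd7 differed from GS by 0.76 (adjusted p = 0.276), 0.37 (0.256) and 0.11 (0.606). Without GS replicate 1 only Wnt5a and Znrf3 were higher, where 2.16% of all genes tested were. Fzd1 was not called without GS replicate 2 (adjusted p = 0.0603) or with the sex covariate (0.0619), and Rnf43 was not called without GBS replicate 2 (0.0527). Without GB replicate 2, 7 members were higher, now with Fzd3 at 0.76 (adjusted p = 0.0186), Ryk at 0.56 (0.0221) and Rspo3 at 0.52 (0.0315), where 7.75% of all genes tested were. Without the 3 arrays that deviate together Fzd3, Ryk, Ror1 and Ror2 were called higher (adjusted p = 0.0118 to 0.0339), and Ror1 and Ror2 were also called with array weights and with the receptor-gene covariate. Of all genes tested 8.2% were higher without these 3 arrays, 8.58% with array weights and 5.95% with that covariate. Rspo2 kept its call in 9 of 23 other settings.

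The interaction, the difference between GBS and GS minus that between GB and Control, asks whether the alleles together exceed the sum of their separate differences. Control alone lacked Cre, so an effect of Cre itself enters through GB minus Control and cannot be told apart here. By limma 0 of 39 members were called (0.324% of all genes tested were higher and 0.00704% lower), and 5 had an unadjusted p under 0.05, all with positive values. These were Wnt5a at 1.08 ± 0.26 (SE, adjusted p = 0.187), Znrf3 at 0.81 ± 0.19 (adjusted p = 0.155), Ryk at 0.65 (0.421), Fzd1 at 0.59 (0.452) and Rnf43 at 0.56 (0.515). The 95% intervals were 0.49 to 1.66 for Wnt5a and 0.40 to 1.22 for Znrf3, not adjusted for the number of genes.

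The rest of the pathway was read from 4 lists of 74 genes, of which 69 were tested, in the same fit. In GBS against Control 14 rose and 0 fell, where 11.0% of all genes tested rose and 4.35% fell, and the median difference was -0.02, against -0.10 over all genes tested. Among 15 tested targets of beta-catenin 9 rose, with a median of 0.57, led by Wif1 at 3.17 (adjusted p = 2.18e-06), Tnfrsf19 at 1.503 (1.7e-05), Axin2 at 1.78 ± 0.12 (2.42e-05) and Lef1 at 2.27 ± 0.17 (3.34e-05). Of 17 tested antagonists, which bind WNT proteins or their receptors outside the cell, 5 rose, with a median of -0.04. They were Wif1, which binds WNT proteins, Apcdd1 at 1.58, Sostdc1, which binds LRP receptors, at 2.14, Frzb, a secreted Frizzled-like protein, at 0.97, and Notum, the enzyme that strips the WNT lipid, at 0.57. Wif1, Apcdd1 and Notum stand in both lists. The shares that rose in the next lists were below that of all genes. Of 26 genes of beta-catenin, the destruction complex and TCF partners 2 rose, the co-repressor Tle1 at 1.10 (adjusted p = 0.00188) and Ctnnb1 at 0.91 (0.0138). Ctnnb1 was not called without GBS replicate 2 (0.071), without Control replicate 3 (0.0651) or with the receptor-gene level as a covariate (0.37, adjusted p = 0.0636). Of 15 tested planar polarity genes, which act downstream of ligands such as WNT5A, 1 rose, Daam2 at 0.54 (adjusted p = 0.0254), and its call was lost without GBS replicate 1 or 3 or any 1 Control array (0.0542 to 0.0799). In GB and in GS against Control none of the 69 was called.

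**Figure D5:**
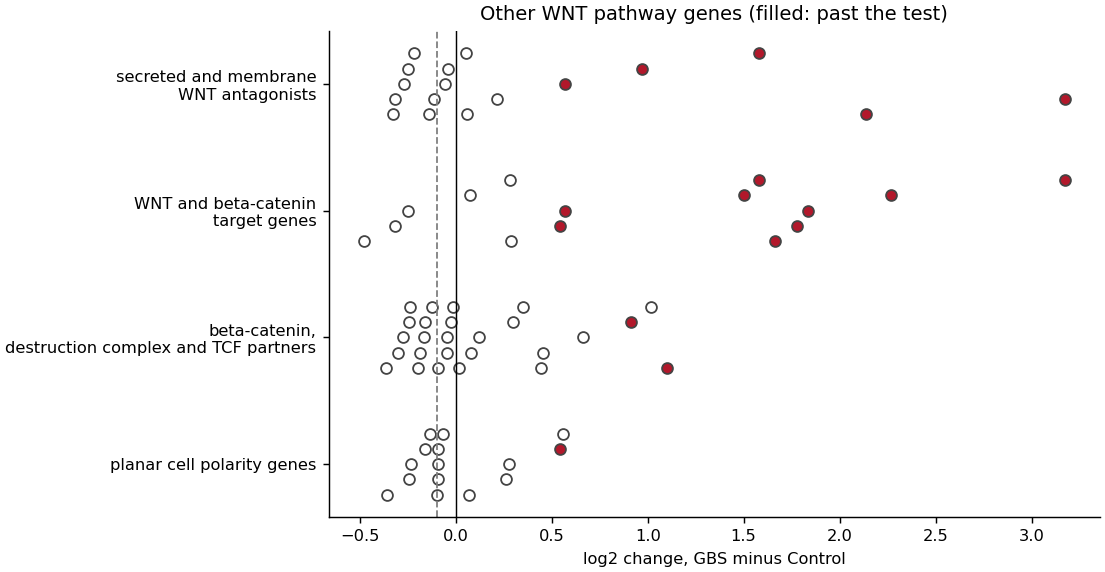
Log2 difference between GBS and Control (x axis) for the tested genes of the 4 other pathway lists (targets, antagonists, destruction complex and partners, planar polarity), with filled points for genes called at an adjusted p under 0.05. The filled points all lie right of 0, and most are in the target list, where 9 of 15 rose.

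Markers of other cells also differed between the genotypes, and sums of a list cover all its genes with a probe set of their own. Of 7 tested radial glia markers 5 rose in GBS against Control (Pax6, Sox2, Vim, Slc1a3 and Prom1) and Fabp7 fell by 2.04 on the log2 scale, and the list summed to 65.8 to 66.8 log2 units in GBS, 59.7 to 62.9 in GB, 63.6 to 65.2 in GS and 60.8 to 61.9 in Control. Of 8 neuron markers 0 rose and 2 fell, with sums of 68.5 to 75.5 in GBS, 65.6 to 78.3 in GB, 74.3 to 81.1 in GS and 75.2 to 78.5 in Control. GB replicate 2, at 65.6, lay below every other array. In the meninges and fibroblast list 1 of 6 rose, Dcn at 3.79, and the sum was 55.6 to 57.5 in GBS, 55.6 to 56.4 in GB, 52.6 to 54.7 in GS and 52.7 to 54.5 in Control. Of these 6 genes 4 had negative differences between GBS and Control. The median of the 6 was -0.21, against -0.10 over all genes tested. In the cortical hem and choroid plexus list 1 of 8 rose, Clic6 at 2.38, with sums of 59.8 to 62.7 in GBS and 59.3 to 65.3 in Control. Rspo1, itself a member, also stands in this list, with a difference of -0.20. Of these 8 genes 6 had negative differences, and the median of the 8 was -0.20. Ttr, which is part of these sums, stood at 9.49 to 10.2 on GS replicates 1 and 2, GB replicate 3 and Control replicate 3. On the other arrays Ttr stood at 5.63 to 6.39. No endothelial, microglial or midbrain and hindbrain marker was called by limma in GBS against Control, and in GBS against GB the microglial marker Csf1r was lower by -0.37 (adjusted p = 0.0477). The part of these cells in the levels of Wnt5a, the Frizzleds, Lrp6, Ryk, the R-spondins and the ligases was not tested.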

How the data were processed

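Levels of RNA were measured on 12 Affymetrix arrays of forebrain, 3 biological replicates of each of GBS, GB, GS and Control, per the labels, which do not say what a replicate number pairs. The deposited log2 values were made by the authors with RMA (Affymetrix Expression Console), as the submitters' processing notes name; that the scale is log2 was read from the range, 2.82 to 13.83. Not given in the sources used here are software versions, probe library and build. RMA corrects background and normalizes arrays against each other, and dim probe sets lie near its floor, which shrinks their differences. The number of arrays limits the precision.

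A platform annotation gave 1 gene symbol to 21789 of 35556 probe sets, several to 1621 and did not list 12146. Symbols were updated through RefSeq (GRCm38.p6), which held 21698. A gene was tested where its highest-mean probe set exceeded the 40th percentile of its array on at least 3 arrays. limma 3.58.1 in R 4.3.3 (lmFit, eBayes, a mean per genotype, no covariate) was fitted to all 12 arrays and was tested on simulated data, and p was adjusted over the 14195 genes tested. The simulated arrays had independent noise, so that test does not cover arrays that deviate together. Same-numbered arrays had correlations of their deviations between -0.818 and 0.739 over 18 pairs, so the numbers were not taken as pairs. Promoter windows were searched for motifs on both strands, and percentages are of all windows.

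The members, gene lists, tests and alternatives were chosen with earlier results of these data known. Any member could be named; members called in at least 1 comparison are given with all arrays. Ror1 and Lgr4 were also given with all arrays after their values were seen. Of each other pathway list up to 4 called genes with the lowest adjusted p are named, and of marker lists the called genes. Notum, Ctnnb1, Ptch1 and Ttr were named outside that limit or whatever their values, Ttr after its values were seen. The 24 alternatives were no filter, a filter at the 60th percentile, quantile normalization, median centring, averaging probe sets of 1 gene, limma's trend with robust, weighting arrays, fitting only the groups compared, a replicate block, leaving out the 3 arrays that deviate together, the receptor-gene level or sex read from Xist (a level above 7) as a covariate, and leaving out each of 12 arrays.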

Additional observations from a re-analysis of the deposited data

How the results depend on the processing

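All 24 called pairs of member and comparison kept their direction in every alternative, and 5 were called in all of them: Wnt5a in GBS against Control and against GS, Fzd1 in GBS against Control, and Znrf3 in GBS against Control and against GS. Of 210 pairs not called, 40 were called in at least 1 alternative. Leaving out each array, members higher in GBS against Control were 3 to 9 (9 with all arrays) and lower 0 to 10 (2 with all arrays, 10 without GB replicate 2, 0 without GBS replicate 2 or Control replicate 3). Of all genes tested 4.45% to 23% were higher and 0.549% to 20.2% lower over these fits, the highest shares without GB replicate 2. In GBS against GB members were 2 to 7 higher and 0 to 2 lower, where 2.79% to 15.5% and 0.176% to 7.36% of all genes tested were. In GBS against GS they were 2 to 7 higher and 0 to 1 lower, where 1.74% to 7.75% and 0.317% to 4.09% of all genes were. Other pathway genes in GBS against Control were 11 to 22 higher and 0 to 8 lower, with 22 and 8 without GB replicate 2.

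Members lower in GBS against Control were 1 with the 60th percentile filter, the replicate block or the receptor-gene covariate, 10 with array weights, 8 with only the groups compared and 7 without the 3 arrays that deviate together. Of all genes tested 4.96%, 1.34%, 7.37%, 24.6%, 21.8% and 18.9% were lower in these fits, in that order. In GS against Control, array weights gave 3 higher and 11 lower, and leaving out the 3 arrays 2 higher. Of all genes tested, array weights called 23.1% higher and 18.9% lower there, and leaving out the 3 arrays 9.86% higher. In GBS against GB, higher members were 0 with only the groups compared or the sex covariate, 4 with the replicate block and 3 with the receptor-gene covariate. Of all genes tested 0.542%, 1.47%, 4.61% and 3.68% were higher in these fits, in that order. Lower members in GBS against GB were 0 with no filter, quantile normalization, centring, only the groups compared, the replicate block or either covariate, 2 with the 60th percentile filter or trend and robust, and 3 with array weights. Of all genes tested 0% to 3.73% were lower in the fits with 0 members. With 2 members the shares were 3.4% and 3.88%, and with array weights 8.5%. In GBS against GS, higher members were 9 with array weights, 8 without the 3 arrays and 7 with the receptor-gene covariate, and lower members 0 with the 60th percentile filter, quantile normalization, centring, only the groups compared, the replicate block or the sex covariate. Of all genes tested 8.58%, 8.2% and 5.95% were higher in the first 3 of these fits, and 0.359% to 1.8% were lower in the rest. Array weights gave 3 higher in the interaction, where 2.49% of all genes tested were. Other pathway genes in GBS against Control were 24 higher and 11 lower with array weights, 23 and 5 with only the groups compared, 23 and 8 without the 3 arrays, and lower were 1 after quantile normalization and 3 with the receptor-gene covariate. With array weights 24.1% of all genes tested were higher and 24.6% lower, and with only the groups compared 24.4% and 21.8%. Without the 3 arrays the shares were 23.5% and 18.9%. Shares lower were 3.51% after quantile normalization and 7.37% with the receptor-gene covariate. The causes were not tested.

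The replicate block, in numbers that do not pair the arrays, ended the calls of Wnt16, Fzd7, Lrp6 and Rspo3 in GBS against Control (adjusted p = 0.0888, 0.063, 0.0562 and 0.0788). Members higher in GBS against Control were 6 with the block and 9 without it, where 7% and 11% of all genes tested were higher. The median of all genes in GBS against Control was -0.03 after centring, against -0.10 without it. The number of arrays and the floor of RMA for dim probe sets limit the precision.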
